A study of Homo sapiens with 19 samples.

Results

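The mRNAs of 28 proteins of the small (40S) ribosomal subunit were followed across fractions of K562, a human erythroleukaemia cell line grown without treatment. The members were taken by symbol: RPSA, FAU and 26 genes named RPS, 28 of the 58051 human genes in the count tables. All 28 were found and all 28 passed the filter on low counts. Total RNA was sequenced from the nucleus, from a nuclear wash prepared without and with rRNA depletion, from the cytoplasm and from whole cells. The undepleted wash had 3 libraries and every other group had 4 depleted libraries. Nothing in the labels ties a replicate to its own culture, and the p-values below therefore rest on variation among libraries that could be technical only. How the nuclear wash was made is not described either, and the fraction keeps its label here.

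The small subunit scans the mRNA, selects the start codon and reads codons in its decoding centre. Most of its proteins are imported into the nucleolus and joined there to the precursor of 18S rRNA. All of its proteins are made in the cytoplasm, so each of their mRNAs has to leave the nucleus first. Most of these mRNAs begin with a cytidine and an unbroken run of pyrimidines, the terminal oligopyrimidine (TOP) motif, through which mTORC1 and the RNA-binding protein LARP1 set their translation. Several of the genes, among them RPS19, RPS24, RPS26 and RPS10, are mutated in Diamond-Blackfan anaemia, and loss of a copy of RPS14 belongs to the 5q- syndrome, both disorders of red cell formation.

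The depleted libraries held 1373755 to 7955415 exon counts each, and the undepleted ones 923464 to 1801293. Genes of rRNA took 4.93 to 26.3% of exon counts in depleted libraries and 31.5 to 45.1% in undepleted ones. All 7 erythroid markers of K562 were detected in all 19 libraries, among them GATA1 and the fetal globin HBG2. Of 10 markers of other cell types, CD79A and KRT5 were at 0 in 18 of the 19 libraries each, CDH1 in 13 and CD3E in 11, while PTPRC, EPCAM, COL1A2 and PECAM1 were detected in all 19. PTPRC and EPCAM had the highest of these levels, with means of 149.8 and 39.9 CPM in the nucleus, 221 and 149 CPM in the wash, 72.0 and 57.8 CPM in the cytoplasm and 116 and 53.8 CPM in whole cells. The summed level of those 10 markers was 258 to 333 CPM in the nucleus, 471 to 485 in the wash, 128 to 191 in the cytoplasm and 210 to 280 in whole cells. Their part in the results was not tested. Column names carry a prefix 1 for replicates 1 and 2 and a prefix 2 for replicates 3 and 4, with undepleted replicate 1 under prefix 1 and replicates 2 and 3 under prefix 2. By column code, undepleted replicates 1, 2 and 3 go with depleted wash replicates 2, 3 and 4, not with those of the same number. Depleted wash replicate 1 has no undepleted partner.

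The starts of the members show the feature by which these mRNAs are usually recognised. The RefSeq promoter table (GRCh38.p14) holds 28 starts of 25 members, while RPS2, RPS15A and RPS20 were not matched. At 1 or more of these starts, 19 of the 25 members have a C as first base followed by an unbroken run of C or T of at least 5 bases in all, read on the transcript's strand only. Among all 35116 starts of the table, 1429 (4.07%) do. The 6 members without such a start in the table are RPS4X, RPS7, RPS15, RPS26, RPS28 and RPS29. The rule reads from the annotated base only, so a run that begins a few bases away, as in RPS28, is not counted. Each window below runs from 10 bases before the annotated start to 20 bases from it, and capitals mark the pyrimidine run where it meets that rule. The first 5 belong to members at the extremes of the comparisons below, RPSA and FAU encode proteins with a second role, and the last 2 lack the run.
RPS27, chr1:153990752-153990781, plus strand: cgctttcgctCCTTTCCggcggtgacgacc
RPS14, chr5:150449720-150449749, minus strand: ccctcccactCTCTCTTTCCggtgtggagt
RPS21, chr20:62387093-62387122, plus strand: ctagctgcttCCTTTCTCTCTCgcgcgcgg
RPS3A, chr4:151099618-151099647, plus strand: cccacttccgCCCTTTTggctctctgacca
RPS10, chr6:34426050-34426079, minus strand: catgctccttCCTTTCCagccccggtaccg
RPSA, chr3:39406710-39406739, plus strand: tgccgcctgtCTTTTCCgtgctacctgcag
FAU, chr11:65122115-65122144, minus strand: tcgcttcttcCTCTTTCTCgactccatctt
RPS15, chr19:1438386-1438415, plus strand: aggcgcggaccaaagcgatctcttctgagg
RPS29, chr14:49598691-49598720, minus strand: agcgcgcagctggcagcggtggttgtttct

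Summed over the 28 genes, the small subunit mRNAs took the smallest share of exon counts in the nucleus and the largest in the cytoplasm, but per spike-in count they were lowest in the wash and highest in whole cells. With rRNA genes left out of the total, their exon counts made up 0.319, 0.310, 0.269 and 0.272% of the 4 nuclear libraries, a mean of 0.292% ± 0.0259 (SD, n = 4). The depleted wash held 0.7998% ± 0.0956, the cytoplasm 1.83% ± 0.136 and whole cells 1.09% ± 0.0509 (SD, n = 4 each). The undepleted wash held 1.03% ± 0.0954 (SD, n = 3). Libraries of the nucleus, the depleted wash and the cytoplasm did not overlap. Per spike-in count the members had 0.268 counts in the nucleus, 0.164 in the depleted wash, 3.34 in the cytoplasm and 4.21 in whole cells (means, n = 4 each). These are shares of a library, and in bulk fractions fewer cells and less RNA per cell cannot be told apart.

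**Figure D1:**
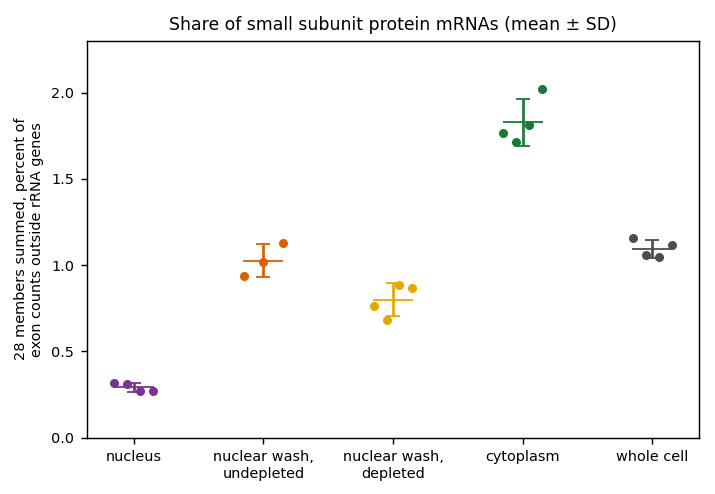
Summed share of the 28 small subunit protein mRNAs in exon counts outside rRNA genes (percent), by group, with dots for libraries and bars for mean ± SD. The nucleus lies at 0.292%, the undepleted and the depleted wash at 1.03 and 0.7998%, the cytoplasm at 1.83% and whole cells at 1.09%.

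Within a fraction the members spanned a wide range of levels. Per kilobase of transcript, RPS21 and RPS6, the substrate of the S6 kinases, led the cytoplasm with 2093 ± 348 and 1978 ± 535 CPM per kilobase (SD, n = 4 each), followed by RPS3A with 1616 ± 159. Lengths are medians over the principal transcripts of GENCODE 29, and at 344 bases that of RPS21 is the shortest of the 28, which raises its value. The ranges of neighbours in this order overlapped, so RPS21 and RPS6 differ by less than their spread. RPS21 was also first in the nucleus (227 ± 39.5 CPM per kilobase), the depleted wash (1393 ± 406) and whole cells (1142 ± 70.2). The libraries of a group differed by a median coefficient of variation over members of 17.4% in the nucleus, 18.7% in the wash, 15.3% in the cytoplasm and 10.6% in whole cells.

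In the nucleus, 27 of the 28 mRNAs were lower than in the cytoplasm and RPS10 was higher (edgeR's quasi-likelihood test, adjusted p under 0.05 over 15940 genes). Of all genes tested, 76.8% were called in this comparison, 37.5% lower and 39.3% higher. The median log2 fold change of the members was −2.82, against 0.03 over all genes. For 27 members no nuclear library reached the lowest cytoplasmic one, and 71.4% of all genes had groups that did not overlap in either direction. Within prefix 1 the members' median was −2.70 with 26 lower and 1 higher, and within prefix 2 it was −2.94 with 27 lower and none higher.

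The 3 lowest members lie in the body and platform or in the head of the subunit. RPS2, which lines the mRNA entry channel, had 86.1, 97.6, 63.1 and 67.4 CPM in the nucleus, against 1192, 1072, 1533 and 1788 CPM in the cytoplasm. Every cytoplasmic library was more than 10 times every nuclear one, and the log2 fold change was −4.15 ± 0.17 (SE, adjusted p = 4.6e-14). RPS20, a head protein that is ubiquitinated on collided ribosomes, had 57.4, 50.5, 53.8 and 49.3 CPM in the nucleus, against 700, 700, 669 and 945 CPM in the cytoplasm. Its log2 fold change was −3.83 ± 0.14 (SE, adjusted p = 9.7e-15), with the nuclear libraries close together and cytoplasm replicate 4 above the rest. RPS3A, which sits near the mRNA exit, had 129, 132, 95.5 and 109 CPM in the nucleus, against 1585, 1644, 1303 and 1505 CPM in the cytoplasm. The groups lay far apart and the log2 fold change was −3.70 ± 0.14 (SE, adjusted p = 1.7e-14). SH3D19, annotated on the other strand across part of RPS3A, was lower too, with a log2 fold change of −2.52. The strand setting of the counting is not given in the sources used here, so reads of a gene and of its partner on the other strand cannot be told apart.

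At the other end stood RPS10, RPS29 and RPS27. RPS10, a head protein at the mRNA entry, had only 10.3, 6.19, 5.98 and 4.67 CPM in the nucleus, against 2.98, 4.30, 3.38 and 4.68 CPM in the cytoplasm. Nucleus replicate 1 stood highest and the groups overlapped. The log2 fold change of 0.80 ± 0.27 (SE, adjusted p = 0.0107) lost its call without that library (0.58, adjusted p = 0.0645) and within prefix 2 (0.45, adjusted p = 0.284). RPS10 shares exons with the readthrough gene RPS10-NUDT3, which is listed at 0 in all libraries, and RPS10 had at most 30 exon counts in any library. Its gene-body count was 0 in all nuclear libraries and at most 2 in any other, below its exon count. How reads shared by these genes were counted was not tested. The level of RPS10 and its direction are therefore uncertain.

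RPS29, a zinc-binding head protein, had 30.0, 28.5, 25.3 and 27.5 CPM in the nucleus, against 40.1, 45.0, 49.4 and 56.5 CPM in the cytoplasm. The groups stood apart by a small margin, with a log2 fold change of −0.78 ± 0.16 (SE, adjusted p = 0.00011). RPS27, a zinc-finger protein of the platform side, had 22.9, 19.9, 13.6 and 10.9 CPM in the nucleus, against 29.8, 23.6, 46.5 and 89.0 CPM in the cytoplasm. Its cytoplasmic libraries differed more among themselves than those of the other members, by a coefficient of variation of 62.4%. The log2 fold change was −1.49 ± 0.36 (SE, adjusted p = 0.00078) in all libraries, −0.32 (adjusted p = 0.381) within prefix 1 and −2.42 within prefix 2.

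**Figure D2:**
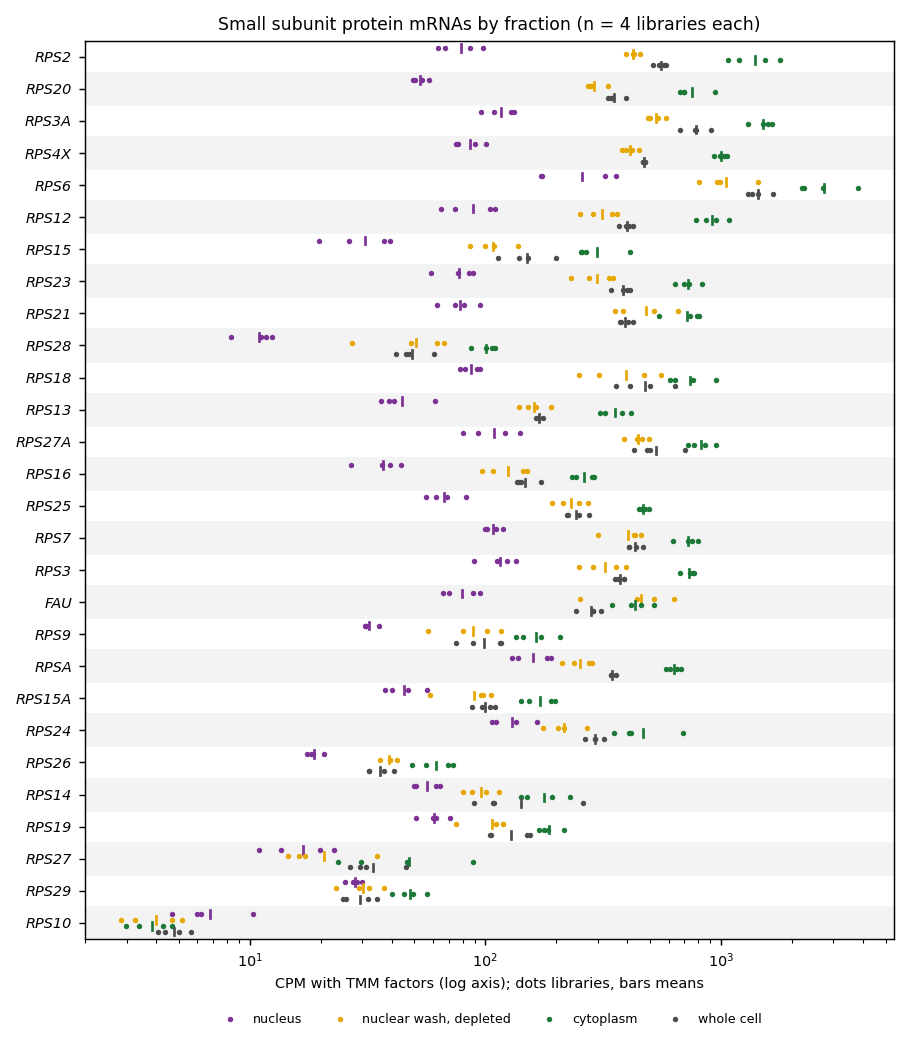
CPM of each member (log axis) in the nucleus, the depleted nuclear wash, the cytoplasm and whole cells, with dots for libraries and bars for means, ordered from the lowest to the highest nucleus against cytoplasm fold change. Nuclear libraries lie left of cytoplasmic ones in every row but that of RPS10, and those of RPS27 and RPS29 overlap the wash.

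The members named for a second role or for their response to depletion were lower in the nucleus as well. RPSA, also known as the laminin receptor, had 183, 190, 137 and 129 CPM in the nucleus, against 648, 584, 678 and 607 CPM in the cytoplasm. This was a log2 fold change of −1.98 ± 0.13 (SE, adjusted p = 3.3e-11), a smaller decrease than the members' median. RPS27A, translated as a fusion with ubiquitin, had 121, 141, 80.2 and 93.4 CPM in the nucleus, against 765, 724, 859 and 950 CPM in the cytoplasm (log2 fold change −2.92 ± 0.18 SE, adjusted p = 7.2e-12). FAU, whose product fuses a ubiquitin-like protein to the ribosomal protein eS30, had 66.3, 69.8, 88.7 and 94.9 CPM in the nucleus, against 458, 518, 415 and 343 CPM in the cytoplasm (log2 fold change −2.44 ± 0.21 SE, adjusted p = 1.5e-09). All 3 had groups that did not overlap.

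RPS15, a head protein required for export of the pre-40S particle, had 37.2, 39.5, 19.6 and 26.5 CPM in the nucleus, against 256, 267, 258 and 412 CPM in the cytoplasm (log2 fold change −3.29 ± 0.23 SE, adjusted p = 5.9e-11). RPS21, a small body protein that binds RPSA, had 95.04, 62.5, 81.0 and 74.2 CPM in the nucleus, against 804, 794, 546 and 736 CPM in the cytoplasm (log2 fold change −3.20 ± 0.19 SE, adjusted p = 4.0e-12). Both lay below the members' median and apart in all libraries.

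The remaining 17 members had log2 fold changes between −3.54 (RPS4X) and −1.62 (RPS19), each with an adjusted p under 0.05. By place in the subunit, 11 of 12 head members were lower and 1 was higher (median −2.88), and 16 of 16 body and platform members were lower (median −2.60). Between the 19 members with the pyrimidine start and the 6 with another start in the table the medians were −2.81 and −2.97. The 7 members with snoRNA genes inside them (RPSA, RPS2, RPS3, RPS3A, RPS12, RPS13 and RPS20) had a median of −3.38 and the other 21 had −2.75. As a description across the 28 members, the fold change had Pearson's r of −0.28 with transcript length and 0.11 with GC content, from the same libraries.

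In the nuclear wash, 26 of the 28 mRNAs were lower than in the cytoplasm and none was higher, where 21.4% of all genes were lower, 22.8% higher and 44.2% were called either way (edgeR's quasi-likelihood test, adjusted p under 0.05). The median log2 fold change was −1.04, against 0.05 over all genes. This comparison shares its cytoplasmic libraries with that of the nucleus. The wash libraries lay below all cytoplasmic ones for 24 members, and 38.2% of all genes had groups that did not overlap. Within prefix 1 the median was −1.11 with 25 lower, and within prefix 2 it was −1.003 with 24 lower and 1 higher. With libraries scaled by spike-ins all 28 members were lower, as were 94.1% of all genes. The members' median was then −4.24 and that of all genes −3.13. The members lay 1.09 below all genes in the main fit and 1.11 below with spike-ins.

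RPS2 was lowest here too, with 423, 395, 451 and 426 CPM in the wash, against the cytoplasmic values above, a log2 fold change of −1.72 ± 0.15 (SE, adjusted p = 2.5e-08). RPS12, a protein of the beak of the head, had 286, 253, 362 and 345 CPM in the wash, against 862, 786, 949 and 1083 CPM in the cytoplasm (log2 fold change −1.56 ± 0.16 SE, adjusted p = 1.2e-07). RPS3A had 499, 582, 539 and 492 CPM in the wash (log2 fold change −1.52 ± 0.13 SE, adjusted p = 1.3e-08). None of these wash libraries reached the lowest library of the cytoplasm.

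FAU and RPS10 were not called in the main fit, though both were lower with spike-in scaling. FAU had 441, 251, 517 and 629 CPM in the wash, spread on both sides of its cytoplasmic libraries, and its log2 fold change was 0.08 ± 0.20 (SE, adjusted p = 0.756). The prefixes went opposite ways, with −0.51 (adjusted p = 0.0494) within prefix 1 and 0.59 (adjusted p = 0.00031) within prefix 2. FAU overlaps SYVN1, a ubiquitin ligase gene of the endoplasmic reticulum, on the same strand. SYVN1 had a log2 fold change of 1.75 for wash against cytoplasm (adjusted p = 6.9e-09), and its part in the value of FAU was not tested. RPS10 had 5.15, 4.67, 2.85 and 3.27 CPM in the wash, overlapping its cytoplasmic libraries (log2 fold change 0.02 ± 0.27 SE, adjusted p = 0.968).

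RPS21 came next, with 354, 383, 658 and 521 CPM in the wash and a log2 fold change of −0.59 ± 0.17 (SE, adjusted p = 0.0084), and wash replicate 3 overlapped the cytoplasm. That difference was −1.12 within prefix 1 and −0.12 (adjusted p = 0.489) within prefix 2. RPSA had 212, 237, 282 and 274 CPM in the wash (log2 fold change −1.32 ± 0.13 SE, adjusted p = 9.5e-08), RPS27A had 493, 387, 439 and 461 CPM (−0.89 ± 0.17 SE, adjusted p = 0.00020) and RPS15 had 138, 86.1, 109 and 99.2 CPM (−1.47 ± 0.21 SE, adjusted p = 9.2e-06). Each of these 3 lay below all cytoplasmic libraries. RPS27 had 34.6, 14.5, 16.2 and 17.2 CPM in the wash, with replicate 1 above the lowest cytoplasmic libraries (log2 fold change −1.26 ± 0.34 SE, adjusted p = 0.0045). Its difference was −0.24 (adjusted p = 0.555) within prefix 1 and −2.02 within prefix 2.

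**Figure D3:**
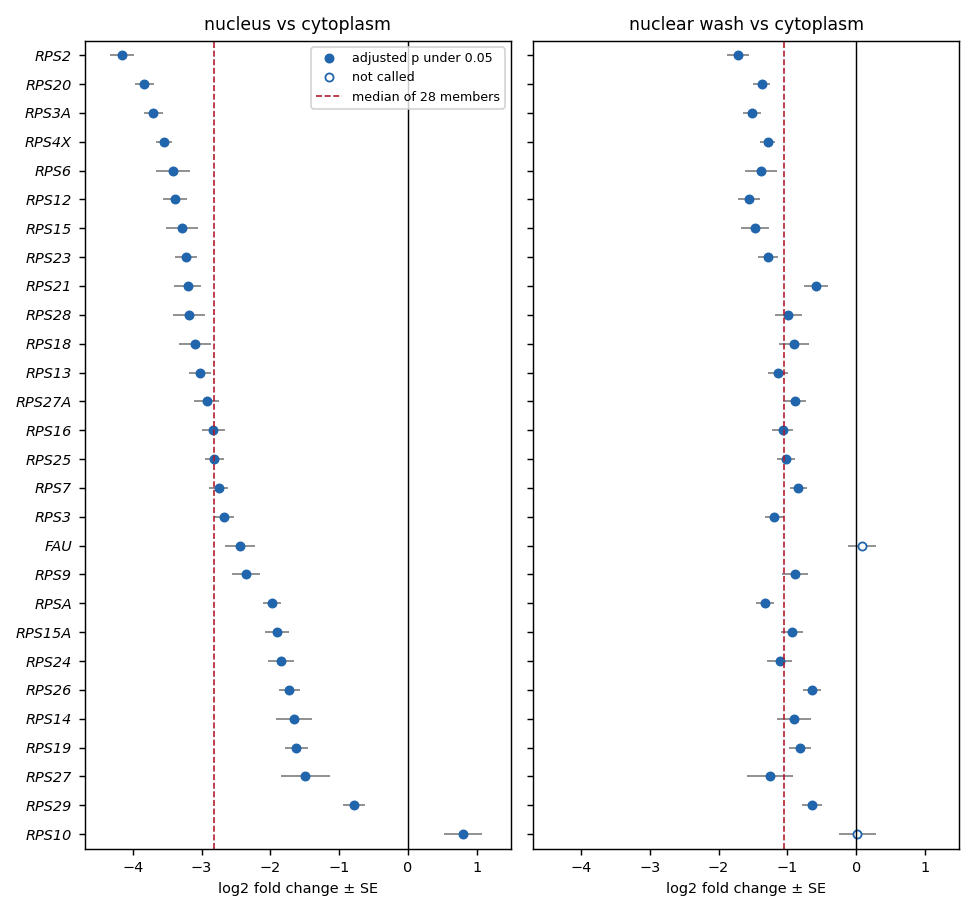
Log2 fold change ± SE of each member for nucleus against cytoplasm (left) and depleted nuclear wash against cytoplasm (right), with filled dots for an adjusted p under 0.05 and a dashed line at the members' median. The medians are −2.82 and −1.04, and both comparisons use the same cytoplasmic libraries.

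The wash stood between the nucleus and the cytoplasm for most members. By mean CPM, 22 of the 28 kept the order nucleus, depleted wash, whole cell, cytoplasm from low to high. A further 4 had the wash above whole cells, FAU had it above the cytoplasm, and RPS10 had the cytoplasm lowest and the nucleus highest. In the wash 25 members were higher than in the nucleus and RPS10 was lower (edgeR's quasi-likelihood test). Of all genes tested, 36.7% were higher, 35.4% lower and 72.1% called either way. But with libraries scaled by spike-ins no member was higher and 20 were lower, where 0.126% of all genes were higher and 92.7% lower. The members' median log2 fold change was 1.82 with TMM and −0.72 with spike-ins. Spike-ins moved the median of all genes to −2.45, and the members lay 1.76 above it with TMM and 1.73 above it with spike-ins. RPS21 (2.62 ± 0.19), FAU (2.52 ± 0.21) and RPS20 (2.46 ± 0.13) led, and RPS27 (0.23 ± 0.38) and RPS29 (0.14 ± 0.16) were not called (log2 fold change ± SE, adjusted p = 0.593 and 0.431). RPS10 (−0.79 ± 0.28, adjusted p = 0.0161) lost its call without nucleus replicate 1 (adjusted p = 0.0871) and without wash replicate 3 or 4 (adjusted p = 0.0691 and 0.0523).

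Against whole cells, the cytoplasm was higher in 25 members and lower in none (edgeR's quasi-likelihood test). Of all genes tested, 22.3% were higher, 27.6% lower and 50% called either way. But with spike-in scaling the cytoplasm was higher in no member and lower in 15, where 0% of all genes were higher and 91.7% lower. The median log2 fold change was 0.85, or −0.39 with spike-ins, and lay 0.85 and 0.84 above that of all genes. RPS2 (1.33 ± 0.15) and RPS12 (1.21 ± 0.16) were farthest up, and RPS14, RPS27 and RPS10 were not called. RPS14, whose whole cell replicate 1 had 260 CPM against 89.6 to 108 CPM in the others, had 0.35 ± 0.24 (adjusted p = 0.243). Without that library it had 0.82 (adjusted p = 0.00057), and with the replicate numbers as a block 0.44 (adjusted p = 0.0440). The nucleus was lower than whole cells in 26 members, where 29% of all genes were lower, 25.9% higher and 54.9% called either way, with a median of −1.97. All nuclear libraries lay below all whole cell libraries in 26 members, and 48.5% of all genes had groups that did not overlap. RPS2 (−2.82 ± 0.16) and RPS3A (−2.75 ± 0.14) lay farthest down and RPS29 and RPS10 were not called.

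The wash and whole cells differed in few members. FAU was higher (0.71 ± 0.20, adjusted p = 0.0087, edgeR's quasi-likelihood test). RPS3A (−0.57 ± 0.13, adjusted p = 0.0017), RPSA (−0.46 ± 0.13, adjusted p = 0.0092) and RPS23 (−0.37 ± 0.14, adjusted p = 0.0485) were lower, RPS23 close to the threshold. These were 4 of 28, where 14.6% of all genes were higher, 19.7% lower and 34.4% called either way. But FAU turned to −3.77 with spike-in scaling, where all 15923 genes tested and all 28 members were lower. With no composition factor 22 members and 39.4% of all genes were lower, and no member was higher. The members' median lay 0.16 below that of all genes under each of these scalings. With the replicate numbers as a block, 1 was higher and 9 were lower, where 17.9% of all genes were higher and 24.3% lower. Within prefix 1 none was higher and 10 were lower (12.7% of all genes lower), and within prefix 2 there were 2 and 6 (15.3 and 19.8% of all genes). With gene-body counts 8 were higher and none was lower (25.5 and 22.5% of all genes), so the direction of this comparison depends on what is counted.

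Summed over the members, the intronic share of counts was highest in the nucleus. The intronic share is the gene-body count minus the exon count, as a percentage of the gene-body count. Summed over the members without RPS10 and RPS29, a choice made after their values were seen, it was 23.3, 22.9, 23.1 and 21.6% in the nucleus, a mean of 22.7% ± 0.773 (SD, n = 4). It was 2.92% ± 1.01 in the wash, 0.453% ± 0.131 in the cytoplasm and 2.83% ± 0.521 in whole cells (SD, n = 4 each), and 1.49% ± 0.648 (SD, n = 3) in the undepleted wash. In this choice of members the nuclear libraries stood above all others, and the wash was above the cytoplasm in every library. Over all 28 members it was 23.8% in the nucleus, 6.11% in the wash, 4.72% in the cytoplasm and 6.34% in whole cells, and 9.13% in the undepleted wash. There the wash and the cytoplasm overlapped, with libraries at 4.83 to 7.66% and 3.64 to 5.53%. Over the 7 members that overlap no other gene the intronic share was 20.4, 3.61, 0.574 and 3.14% in the same order of fractions.

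For 18 of the 22 members that could be compared, every nuclear library exceeded every cytoplasmic one in the intronic share, as did 88% of 9864 genes with at least 20 gene-body counts in each library. Here and for the wash, genes with no intronic count, or with more exon than gene-body counts in any library compared, were left out as well. The exons in GENCODE 29 cover 100% of the gene length of RPS15 and FAU, so these leave no intron to count in. By these rules RPS10, RPS13, RPS15A and RPS28 were not compared either. RPS13, left out for −0.0755% in cytoplasm replicate 4, had 5.95 to 13.6% in the nucleus and 0.186% at most in the cytoplasm. RPS9, a body protein at the mRNA entry, held 80.3, 77.2, 74.8 and 70.3% intronic counts in the nucleus, against 9.08, 8.53, 3.83 and 4.02% in the cytoplasm. RPS19, the gene most often mutated in Diamond-Blackfan anaemia, held 54.2, 53.5, 48.1 and 41.3% in the nucleus, against 5.15, 4.47, 2.56 and 2.74% in the cytoplasm. RPS2, whose exons cover 85.9% of the gene, held 1.54, 1.05, 2.11 and 2.26% in the nucleus, against 0.0288% at most in the cytoplasm. The median over these 22 members was 20.5% in the nucleus and 0.396% in the cytoplasm, against 73.0 and 14.9% over all genes compared.

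In the wash, 16 of 21 members exceeded the cytoplasm in all libraries, as did 61% of 10115 genes. RPS9 held 38.4, 45.1, 21.0 and 18.8% and RPS19 held 24.4, 29.1, 14.9 and 12.1% there, the 2 libraries of prefix 1 above those of prefix 2 for both genes. RPS24, whose last exons are alternatively spliced, held 14.9, 22.6, 16.01 and 16.1% in the wash, against 3.15, 3.61, 3.26 and 1.63% in the cytoplasm.

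RPS29 alone went the other way, with 65.8, 66.5, 67.3 and 62.9% in the nucleus, against 92.7, 93.0, 94.8 and 94.9% in the cytoplasm. Its gene body spans the signal recognition particle RNA gene RN7SL1 on the other strand, which is itself listed at 0 in all libraries. The gene-body count of RPS29 was 143 to 284 in the nucleus and 2783 to 7156 in the cytoplasm, against 53 to 93 and 202 to 362 exon counts. By gene-body counts its log2 fold change for nucleus against whole cell was −2.88, against −0.09 by exon counts.

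**Figure D4:**
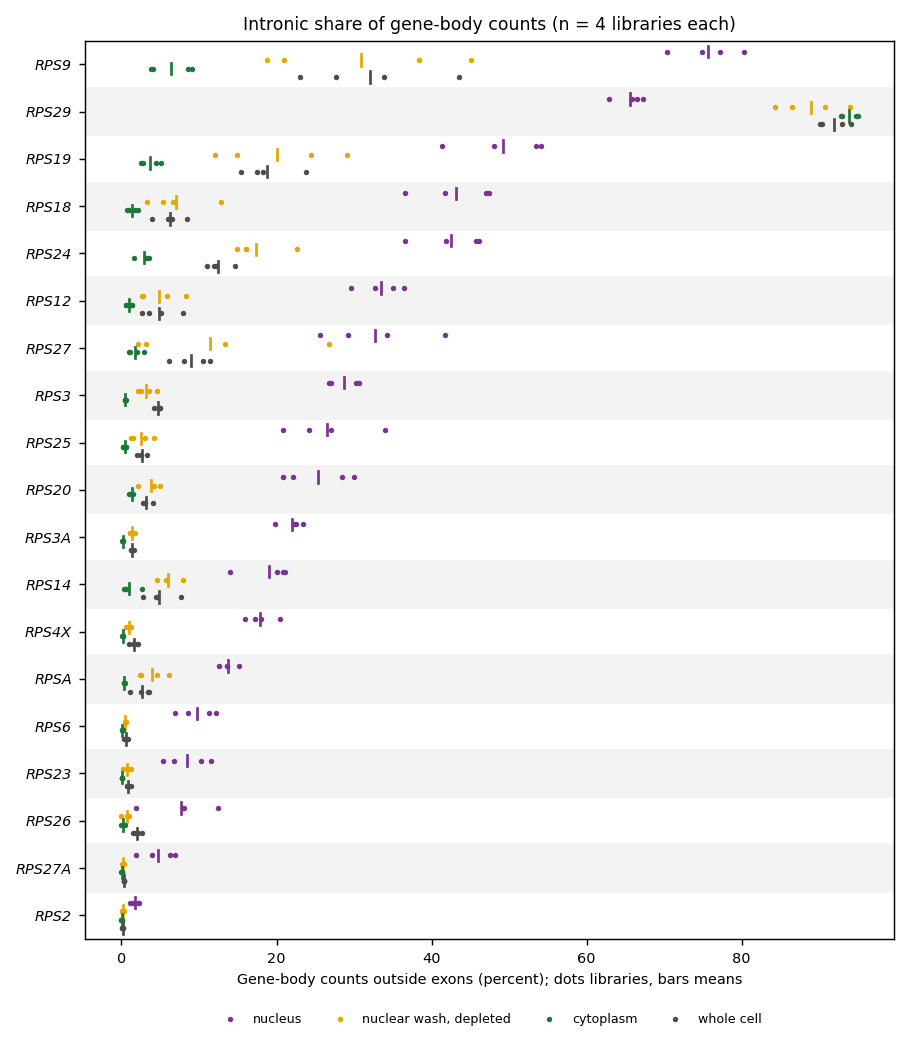
Intronic share of gene-body counts (percent) for 19 of the 22 members compared, those whose libraries did not overlap between nucleus and cytoplasm, with dots for libraries and bars for means. Nuclear libraries lie right of cytoplasmic ones in every row but that of RPS29, with nuclear means from 75.7% for RPS9 to 1.74% for RPS2.

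Counts were also listed for related copies and for overlapping neighbours, and how reads that fit several genes were assigned is not given in the sources used here. The annotation names 394 copies after the 28 members, all of them in the tables, and their counts made up 10.7% ± 0.279 of members and copies together in the nucleus, 5.88% ± 0.584 in the wash, 5.55% ± 0.698 in the cytoplasm and 6.24% ± 0.303 in whole cells (SD, n = 4 each). For RPS2 the copies made up 27.9% of the total in the nucleus, 31.0% in the wash and 24.6% in the cytoplasm, with RPS2P5 the copy of most counts. With the copies' counts added to the members, 27 were lower and none was higher in nucleus against cytoplasm, with a median of −2.75, and RPS10 lost its call (0.33, adjusted p = 0.174). ATG10, an autophagy gene on the other strand across part of RPS23, had a log2 fold change of −3.67 for nucleus against cytoplasm, beside −3.22 for RPS23, a protein of the decoding centre.

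Small nucleolar RNAs, which guide modification of rRNA, are cut from introns of 7 members. Of the 14 genes annotated there, 7 were listed at 0 in all libraries. All 7 share bases with an annotated exon of their member, while every snoRNA gene that shares none had reads in the nucleus. A count of 0 is therefore not read as absence, and how shared reads were counted was not tested. SNORD15B inside RPS3 had 136 to 726 reads in the nuclear libraries, against 12 to 53 in the cytoplasmic ones, while RPS3 itself was lower in the nucleus. SNORD101 inside RPS12 had 44 to 114 reads in the nuclear libraries, against 22 to 65 in the cytoplasmic ones. The remaining 5 had at most 53 reads in any nuclear library, and no count of calls is given, since some of them passed the filter on low counts through the nucleus only.

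Leaving out rRNA depletion changed the members unevenly. RPS15, RPS27 and RPS21 were named for this response, so their values are given as a description with no test. RPS15 had 663, 808 and 1051 CPM in the undepleted wash, against 102, 61.9, 77.0 and 71.7 CPM in the depleted wash. RPS27 had 179, 236 and 211 CPM in the undepleted wash, against 25.6, 10.4, 11.5 and 12.4 CPM in the depleted wash. RPS21 had 107, 162 and 125 CPM in the undepleted wash, against 262, 275, 465 and 376 CPM in the depleted wash. RPS15 and RPS27 were higher and RPS21 was lower without depletion, and the groups did not overlap for any of the 3. The log2 fold changes were 3.43 ± 0.22 for RPS15, 3.85 ± 0.29 for RPS27 and −1.38 ± 0.24 for RPS21 (SE).

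RPS15 therefore made up 11.04% of the members' summed counts in the undepleted wash and 1.46% in the depleted wash. RPS27 made up 2.77 and 0.279%, and RPS21 1.75 and 6.39%, in the same order. Within the prefixes the log2 fold changes were 3.02 and 3.68 for RPS15, 3.38 and 4.28 for RPS27 and −1.34 and −1.49 for RPS21, for prefix 1 and then prefix 2. Prefix 1 holds only 1 undepleted library.

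Of the other 25 members, 6 were higher and none was lower in the undepleted wash, where 7.75% of all genes were higher, 3.35% lower and 11.1% called either way (edgeR's quasi-likelihood test, adjusted p under 0.05). Their median log2 fold change was 0.29, against −0.04 over all genes. Of these 25, 10 lay above and 1 below all depleted libraries, and 27.3% of all genes did not overlap. With the replicate codes as a block, 11 of the 25 were higher and 3 lower, where 16.7% of all genes were higher and 15.8% lower. With no composition factor 2 of the 25 were higher and 4 lower, where 3.45% of all genes were higher and 30.9% lower. The median of all genes was then −0.56, and that of the 28 members lay 0.35 above it both ways.

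RPS14, a platform protein, had 208, 288 and 450 CPM in the undepleted wash, against 84.4, 63.1, 56.5 and 72.8 CPM in the depleted wash. Its libraries stood well apart, with a log2 fold change of 2.19 ± 0.25 (SE, adjusted p = 0.00029). RPS26, which contacts mRNA upstream of the start codon, followed with 62.4, 62.1 and 77.4 CPM in the undepleted wash, against 26.4, 28.4, 29.7 and 28.4 CPM in the depleted wash (1.25 ± 0.16 SE, adjusted p = 0.00066). RPS15A (1.05), RPS3 (0.96), RPS19 (0.88) and RPS6 (0.80) were the other 4 called higher, with adjusted p of 0.0102, 0.0076, 0.0134 and 0.0432. RPS6 and RPS15A each lost the call when 1 or more single libraries were left out, with adjusted p up to 0.223 for RPS6 and 0.0610 for RPS15A. RPS19 lost it without undepleted replicate 2 (adjusted p = 0.0603).

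The lowest of the remaining members were not called. RPS23 had 156, 181 and 157 CPM in the undepleted wash, against 203, 167, 245 and 242 CPM in the depleted wash (−0.38 ± 0.18 SE, adjusted p = 0.192). RPS3A had 286, 284 and 316 CPM, against 369, 418, 381 and 355 CPM in the depleted wash (−0.37 ± 0.15 SE, adjusted p = 0.129), below all depleted libraries. The 3 members whose proteins have a second role all overlapped their depleted libraries. RPSA had 251, 246 and 193 CPM, against 157, 170, 199 and 198 CPM (0.34 ± 0.17 SE, adjusted p = 0.199). FAU had 236, 329 and 423 CPM, against 326, 181, 365 and 455 CPM (−0.01 ± 0.29 SE, adjusted p = 0.988). RPS27A had 397, 383 and 361 CPM, against 364, 278, 310 and 333 CPM (0.24 ± 0.15 SE, adjusted p = 0.321). Of these, RPS3A and RPS23 were called lower and RPSA and RPS27A higher with the replicate codes as a block, and FAU was not called. RPS10, at 2.18 to 9.07 CPM in the undepleted wash, had 1.07 ± 0.47 (SE, adjusted p = 0.159).

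**Figure D5:**
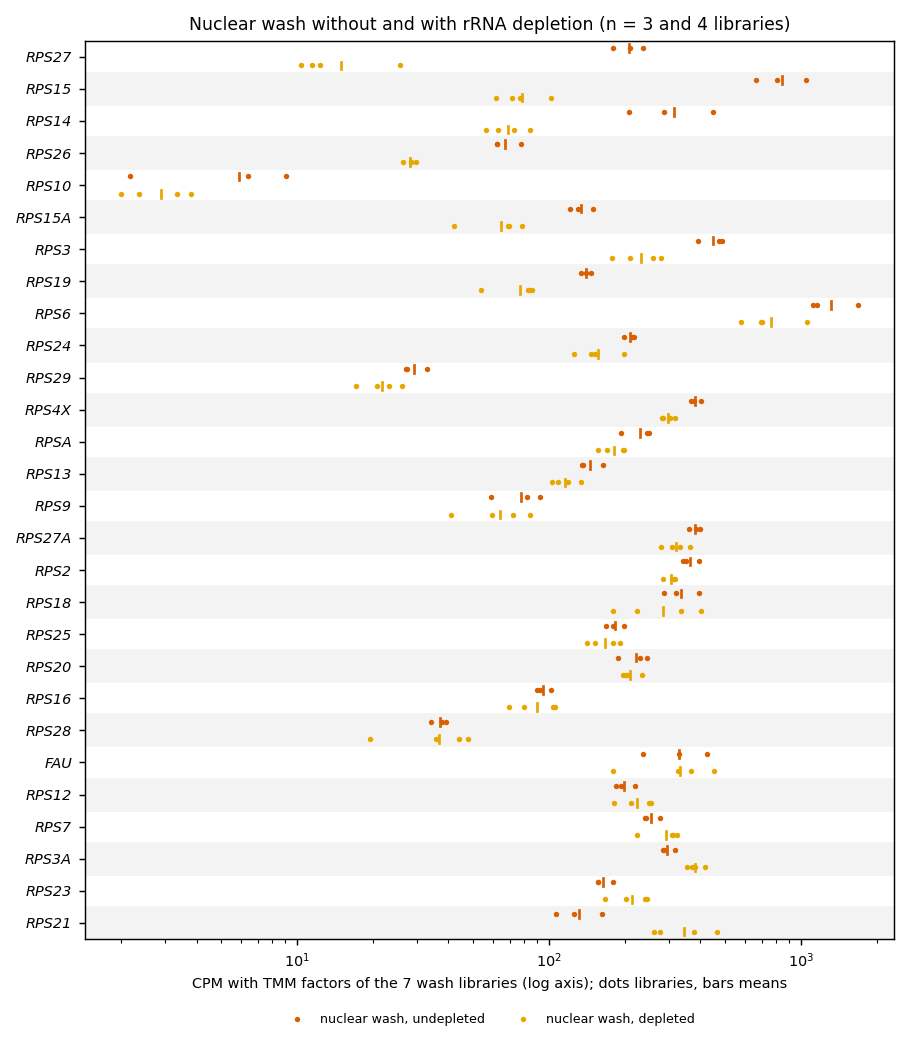
CPM of each member (log axis) in the nuclear wash without depletion and with depletion, with dots for libraries and bars for means, ordered from the highest to the lowest fold change. RPS27, RPS15 and RPS14 lie farthest right of their depleted libraries and RPS21 lies left of them, while 14 members overlap between the groups.

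Genes of the large subunit and of factors that work with the small subunit are given by count. Of 47 large subunit proteins 45 were lower and 2 higher in the nucleus than in the cytoplasm (median −2.81), beside −2.82 for the members. Of all genes tested, 37.5% were lower and 39.3% higher in this comparison. Of 25 assembly factors of the small subunit, which act largely in the nucleolus, 16 were lower, 2 higher and 7 not called (median −0.71). Of 22 initiation factors that bind the small subunit, 19 were lower, 1 higher and 2 not called (median −1.53), and of 12 other TOP mRNAs tested all 12 were lower (median −2.49).

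For the wash against the cytoplasm the large subunit list had 43 lower and 1 higher of 47 (median −1.05), the assembly factors 7 lower and 2 higher of 25 (−0.25) and the initiation factors 14 lower and 1 higher of 22 (−0.58), where 21.4% of all genes were lower and 22.8% higher. In the undepleted against the depleted wash, 29 of 47 large subunit genes were higher and 1 lower (median 0.73), and 2 of 24 assembly factors were higher and none lower, where 7.75% of all genes were higher and 3.35% lower. These lists were chosen with earlier results of these data known, and no difference between lists was tested.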

How the data were processed

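Stranded total RNA libraries were made from Trizol LS extracts with synthetic yeast RNA added, per the labels' protocols. Trimming, alignment and counting tools named in the submitters' processing notes are cutadapt 2.5, STAR 2.7.0a and featureCounts 1.6.2, with the build hg38. The authors deposited raw read counts per gene over exons and over gene bodies. For annotation release, strand setting and shared reads, the answer is not given in the sources used here. All count columns matched a library, and 0 were left unused. Positions and lengths are those of GENCODE 29, which held 57447 of the 58051 gene identifiers by exact match.

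Exon counts were tested with edgeR 4.0.16 (quasi-likelihood test, TMM, filterByExpr, Benjamini-Hochberg over all genes tested), with 16 depleted libraries in a single fit and 7 wash libraries in another. Calls were made at adjusted p values under 0.05. CPM values are counts scaled to library size with TMM factors, and fold changes are relative to the typical gene. SE was taken as the fold change (log2) over the root of its F value. Spike-in scaling cannot be read as amounts, since the amount added is not stated. Same-numbered depleted libraries deviated together (r of 0.104 to 0.379 in all 24 pairs). So did the undepleted and depleted wash libraries that share a column code (r of 0.215 to 0.465). The main fits, and every call not said to use the block, left this pairing out. It entered only as the replicate block, an alternative. Replicates differed by more than sampling noise. Reads carry no molecular identifiers as far as the labels say. Intervals cover the spread between libraries only.

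The members and lists were chosen with earlier results of these data known. All 28 members are accounted for. Values in each library are given for the 3 highest and 3 lowest members of nucleus against cytoplasm, wash against cytoplasm and undepleted against depleted wash, and for RPS15, RPS27, RPS21, RPSA, RPS27A and FAU. Alternatives changed the scaling, the filter, the tool (DESeq2 1.42.0), the counts used, the replicate block, the prefix and each library left out. Adding copies and leaving out RPS10 and RPS29 were chosen after seeing the data.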

Additional observations from a re-analysis of the deposited data

Results flagged for a closer look

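In 8 of 120 groups of 4 libraries examined, 1 library stood far from the others by Dixon's criterion, where chance gives about 1 in 20, or 6. RPS14 had 260.3 CPM in whole cell replicate 1, against 89.58 to 108.5 CPM in the others, and RPS16, a head protein, had 172.5 CPM in the same library, against 136.2 to 141.4 CPM. RPS15 had 411.9 CPM in cytoplasm replicate 4, against 255.9 to 266.6 CPM, and RPS20 had 945.0 CPM there, against 669.1 to 700.2 CPM. RPS20 also had 331.3 CPM in nuclear wash replicate 3, against 272.9 to 280.5 CPM, and RPS27 had 34.58 CPM in nuclear wash replicate 1, against 14.48 to 17.18 CPM. RPS9 had 35.4 CPM in nucleus replicate 2, against 30.93 to 31.13 CPM. The summed intronic share of the 28 members was 7.358% in whole cell replicate 4, against 5.924 to 6.138% in the others.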

How the results depend on the processing

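Of 104 results on single genes, 64 counted as unchanged under every alternative run. The other 40 changed under at least 1, and for these the cause was not tested. A result called in the main fit was unchanged if it kept its direction and its call. A result not called there was unchanged if it stayed uncalled or if its direction turned, whatever its adjusted p. RPS10 in the wash against the cytoplasm, for example, had 0.38 within prefix 1 and −0.40 within prefix 2. With spike-in scaling the wash against the nucleus had 0 members higher and 20 lower (median −0.72), where 92.7% of all genes were lower. RPSA had −1.89 there, RPS20 −0.081 and FAU −0.095. The cytoplasm against whole cells then had 0 higher and 15 lower (median −0.39), where 91.7% of all genes were lower, with RPS12 at −0.048. The wash against whole cells had 28 lower, as had 100% of all genes, with FAU at −3.77. In the undepleted wash 2 of the 25 members not named for their response to depletion were higher and 0 lower. Of all genes, 2.92% were higher and 1.26% lower there. With no composition factor RPSA had −0.016 in the wash against the nucleus, 22 members were lower in the wash than in whole cells, and 4 were higher in the undepleted wash (median −0.21). For the wash against whole cells, the number lower was 6 with no filter, 0 with gene-body counts (median 0.22, RPSA 0.040, RPS23 0.11), 9 with the replicate block, 10 within prefix 1 and 6 within prefix 2, and 2 to 6 with single libraries left out. The block gave 13 higher in the undepleted wash. Beside the calls given above, it changed no other call on a member in the remaining comparisons.

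By gene-body counts the summed share was 0.109% (nucleus), 0.645% (wash), 1.66% (cytoplasm), 0.611% (whole cell) and 0.916% (undepleted). Of all exon counts it was 0.616% (wash), 1.45% (cytoplasm), 0.907% (whole cell) and 0.612% (undepleted), and with mitochondrial and rRNA genes both left out 1.18% in the last. Per spike-in count the members had 0.268 counts (nucleus), 0.164 (wash), 3.34 (cytoplasm), 4.21 (whole cell) and 0.1998 (undepleted). The intronic share was 20.4% (nucleus), 3.61% (wash), 0.574% (cytoplasm), 3.14% (whole cell) and 1.27% (undepleted) over members that overlap no other gene. Without RPS10 and RPS29 it was 22.7, 2.92, 0.453, 2.83 and 1.49% in the same order. Over all 28 members it was 9.38% in the undepleted library of prefix 1. Low counts limit RPS10, with at most 30 exon counts and 2 gene-body counts in any library.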
